A study of Mus musculus with 100 samples.

Results

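The regions described here were the ChIP-seq peaks and H3K27ac windows that the deposited tables assign to 10 mouse immunoglobulin-superfamily receptor genes: Cd300a, Cd300lb, Cd300lf, Cd300e and Cd300ld of the CD300 cluster, and the Fc receptor genes Fcgr1, Fcgr2b, Fcgr3, Fcgr4 and Fcgrt. They were taken by gene name from all 15 tables of raw tags, which gave 818 regions of 610301 in all. Of these, 441 belonged to the Cd300 genes and 377 to the Fc receptor genes, from 15 for Fcgrt to 149 for Cd300a. The assignment is to the nearest start site and does not show which gene a region acts on. The genes were chosen by measured values: H3K27ac at a region distal to Cd300a was higher in the libraries with KLA and the HDAC3 inhibitor RGFP966 than in those with KLA alone. Everything in the RGFP966 contrast is given below as a description, without a test.

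The study asked how the nuclear receptor corepressor NCoR acts in macrophages stimulated through TLR4. Bone marrow-derived macrophages (BMDMs) were treated with vehicle (Veh) or with KLA (Kdo2 lipid A, a TLR4 agonist), and chromatin was immunoprecipitated for NCoR, HDAC3, p65, Fosl2, PU.1, PGC1β, ERK1, p300 and H3K27ac. The factor libraries came from wild-type C57BL/6 cells, with further sets in which an ERK inhibitor (ERKi) accompanied KLA for NCoR and PGC1β, and sets for ERK1 and p300 in bone marrow cells at day 0 and day 4 of osteoclast differentiation. Some of the ERK1 libraries at day 0 and day 4 also carry the name NCoRWT in their labels. H3K27ac was measured in WT (NCoR flox/flox) and NKO (NCoR flox/flox, LysMCre) cells with Veh or KLA, in wild-type cells with DMSO and Veh, DMSO and KLA, or RGFP966 and KLA, and in PGC1b flox/flox cells without (flox) or with LysMCre (flox Cre), again with Veh or KLA. The labels of these H3K27ac libraries also give the C57BL/6 strain. LysMCre acts in the myeloid lineage, and an H3K27ac library does not show how much of the floxed allele was lost. Where the labels state a time it was 6 h, except that the p300 Veh libraries are labelled 0 h. Each group had 2 biological replicates.

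CD300 molecules are receptors of myeloid cells that bind lipids exposed on dying cells and come in paired forms. Cd300a and Cd300lf carry inhibitory motifs that recruit phosphatases such as Ptpn6, whereas Cd300lb and Cd300ld lack them and signal through adaptor proteins. Fc receptors bind the constant part of IgG: Fcgr1, Fcgr3 and Fcgr4 are activating and need the Fcer1g chain, Fcgr2b is the inhibitory IgG receptor, which recruits the phosphatase Inpp5d, and Fcgrt is the neonatal Fc receptor, which pairs with B2m and recycles IgG. H3K27ac marks active enhancers and promoters.

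Values are tags per 10 M tags of the library. The 70 libraries held 4.30 to 21.5 M tags, of which 2.79% to 52.8% lay in the regions of their table, and this share moved with treatment. TMM scaling, which sets the typical region to no change, therefore shifted the median region by more than 0.1 on the log2 scale in 22 of 25 comparisons (by -1.61 to 1.16), and TMM counts or values stand beside those they change. A region was called at an edgeR adjusted p under 0.05 with more than a 2-fold change. Across the H3K27ac groups, 3 to 6 of 6 macrophage markers carried the mark (6 of 6 in the DMSO and PGC1b tables), B cell, T cell, mast cell and fibroblast markers carried none, and at most 1 of 4 neutrophil, 1 of 2 NK cell and 1 of 5 osteoclast markers did. Tags come from a population, so fewer cells carrying a mark and less of it per cell cannot be told apart.

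The mm10 sequences (plus strand) of a few sites are shown, the first 2 with factor peaks lower with KLA and the others with factor peaks higher. At the second site, of the Veh and KLA libraries only the Veh ones met the tag minimum, so the direction there was fixed in advance. The first lies past the 3′ end of Cd300a, 13.5 kb downstream of its start site and annotated as intergenic, and is given by its central 300 bases (chr11:114903345-114903644), in which capitals mark the only match to the AP-1 motif TGANTCA.

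Cd300a, 13.5 kb downstream: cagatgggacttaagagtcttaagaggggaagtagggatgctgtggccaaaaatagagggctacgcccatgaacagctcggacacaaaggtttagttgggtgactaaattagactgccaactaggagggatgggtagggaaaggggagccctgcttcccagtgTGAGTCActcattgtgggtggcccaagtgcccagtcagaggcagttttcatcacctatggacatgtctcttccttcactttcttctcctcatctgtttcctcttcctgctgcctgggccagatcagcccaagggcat

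The second lies in intron 1 of Cd300lb (chr11:114933697-114933896) and the third in intron 1 of Cd300e (chr11:115061645-115061844). They are 200-base windows at the peak centres and held no match to the motifs searched.

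Cd300lb, 0.6 kb downstream: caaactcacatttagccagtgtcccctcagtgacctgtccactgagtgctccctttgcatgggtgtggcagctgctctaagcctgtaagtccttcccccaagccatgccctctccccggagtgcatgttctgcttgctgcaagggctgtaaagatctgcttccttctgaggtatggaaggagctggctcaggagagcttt

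Cd300e, 0.3 kb downstream: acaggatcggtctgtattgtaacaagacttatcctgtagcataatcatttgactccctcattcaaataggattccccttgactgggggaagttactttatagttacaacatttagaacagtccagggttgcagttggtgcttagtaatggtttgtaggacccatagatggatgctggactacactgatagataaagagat

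Upstream of Fcgr2b lie a region at 1.2 kb (chr1:170977158-170977357) and one at 11.1 kb (chr1:170987027-170987226), both annotated as intergenic. The last is in intron 5 of Fcgr1 (chr3:96285345-96285544). None of these held a match to the motifs searched.

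Fcgr2b, 1.2 kb upstream: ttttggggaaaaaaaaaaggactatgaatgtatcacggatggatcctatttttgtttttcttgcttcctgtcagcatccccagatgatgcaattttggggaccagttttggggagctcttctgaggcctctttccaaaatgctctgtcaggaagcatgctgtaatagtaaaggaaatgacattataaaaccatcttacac

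Fcgr2b, 11.1 kb upstream: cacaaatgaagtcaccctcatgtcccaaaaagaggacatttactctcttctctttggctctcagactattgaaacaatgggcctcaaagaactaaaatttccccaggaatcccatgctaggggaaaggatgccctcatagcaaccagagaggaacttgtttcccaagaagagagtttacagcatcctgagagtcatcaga

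Fcgr1, 8.5 kb downstream: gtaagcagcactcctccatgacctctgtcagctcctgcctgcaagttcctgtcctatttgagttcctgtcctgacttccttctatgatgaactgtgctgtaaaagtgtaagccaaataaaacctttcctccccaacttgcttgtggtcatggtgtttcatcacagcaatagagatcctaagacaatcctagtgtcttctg

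KLA lowered H3K27ac across the Cd300 cluster. With DMSO, 16 of the 25 member windows (about 1 kb each) fell and 1 rose, against 28.1% of all tested windows called lower and 6.73% called higher. Of the 17 Cd300 windows 15 fell and none rose, with a median log2 fold change of -2.02, where the median of all windows was -0.42. With TMM scaling, which moved that median to about 0, 12 of the 16 falls were still called and 2 windows rose. At that scaling 17.2% of all windows were called lower and 12.5% higher. These Veh and KLA libraries include the DMSO KLA libraries against which RGFP966 was set. The counts also include the distal Cd300a window that chose the genes. The calls and p-values of this comparison are therefore not independent of how the genes were chosen. The PGC1b flox cells described later are other libraries.

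The window 13.5 kb downstream of Cd300a, the inhibitory receptor, held 220 and 213 tags per 10 M with DMSO and Veh, 29.8 and 19.4 with DMSO and KLA, and 249 and 229 with RGFP966 and KLA. The DMSO KLA libraries were far below the others, and the RGFP966 libraries lay above the Veh ones. Because this window chose the genes, its values are given without a test. The KLA response was -3.11 on the log2 scale (TMM -2.69), and RGFP966 with KLA stood 3.25 above DMSO with KLA (TMM 2.92). Without the DMSO KLA replicate 1 library the second difference was 3.62.

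The other windows of Cd300a were also lowest with KLA, without reaching as large a difference. In those that follow, the RGFP966 libraries did not both lie above the Veh ones. At 5.1 kb upstream the libraries held 442 and 418 with Veh, 96.5 and 85 with KLA, and 413 and 351 with RGFP966 and KLA. At 10.3 kb upstream they held 277 and 260, 62.8 and 58.1, and 265 and 262. At the promoter window (0.2 kb) they held 465 and 433, 122 and 112, and 337 and 259. In each window both KLA libraries lay below all others. Over the 7 Cd300a windows the KLA response ranged from -1.93 to -3.11 and the RGFP966 difference from 1.35 to 3.25, all 7 past 2-fold in both. The windows at 17.7 and 18.3 kb overlap and share tags.

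At Cd300lb, an activating receptor, the promoter window fell from 707 and 638 with Veh to 111 and 91.7 with KLA (log2 fold change -2.72 ± 0.21, SE, adjusted p = 5.82e-36, TMM -2.30, the lowest p of the members). With RGFP966 and KLA it held 280 and 245, between the other groups. The window 3.2 kb downstream went from 792 and 737 to 188 and 174 and held 336 and 266 with RGFP966, and the one at 19.3 kb went from 580 and 609 to 126 and 131 and held 289 and 240. Only the window 7.4 kb downstream of Cd300lb did not pass the fold minimum (-0.71 ± 0.20). By library totals RGFP966 thus stood 0.35 to 1.37 above DMSO with KLA over the 6 Cd300lb windows, with its mean below that of Veh in each.

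The promoter of Cd300lf, the other inhibitory receptor, went from 130 and 126 to 47.9 and 24.4 (-1.79 ± 0.26, adjusted p = 2.26e-11) and held 170 and 130 with RGFP966, a difference of 2.02. The Cd300ld promoter went from 226 and 229 to 118 and 87.5 (-1.14 ± 0.22) and held 161 and 170 with RGFP966. The window 9.8 kb upstream of Cd300e went from 347 and 369 to 178 and 177 (-1.01 ± 0.20) and held 346 and 303. The Cd300ld and Cd300e calls were lost with TMM (-0.71 and -0.59), the Cd300ld call without the DMSO KLA replicate 2 library (-0.95) and the Cd300e call without the DMSO Veh replicate 2 library (-0.97).

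With RGFP966, 10 of the 25 windows were past 2-fold higher and 0 past 2-fold lower, where all windows gave 28.3% and 9.69%, and all 10 belonged to Cd300 genes. The window just inside 2-fold was that 19.3 kb downstream of Cd300lb (1.04), and the nearest outside it were that 9.8 kb upstream of Cd300e (0.87) and the Fcgr1 promoter (-0.87). With TMM 9 windows were past 2-fold higher and 3 past it lower (Fcgr1 promoter -1.22, Fcgr1 6.9 kb upstream -1.09, Fcgrt promoter -1.08). All windows then gave 17.4% and 19.2%. Markers of other cell types moved with these groups too. In DMSO Veh, DMSO KLA and RGFP966 KLA cells the summed H3K27ac level was 57.5, 26.3 and 79.1 over the 4 neutrophil markers, of which 1 carried the mark, and 45.1, 38.9 and 114 over the 2 NK cell markers, of which 1 did. That of the 6 macrophage markers was 2396, 2410 and 1897. The part of this in the receptor values was not tested.

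**Figure D1:**
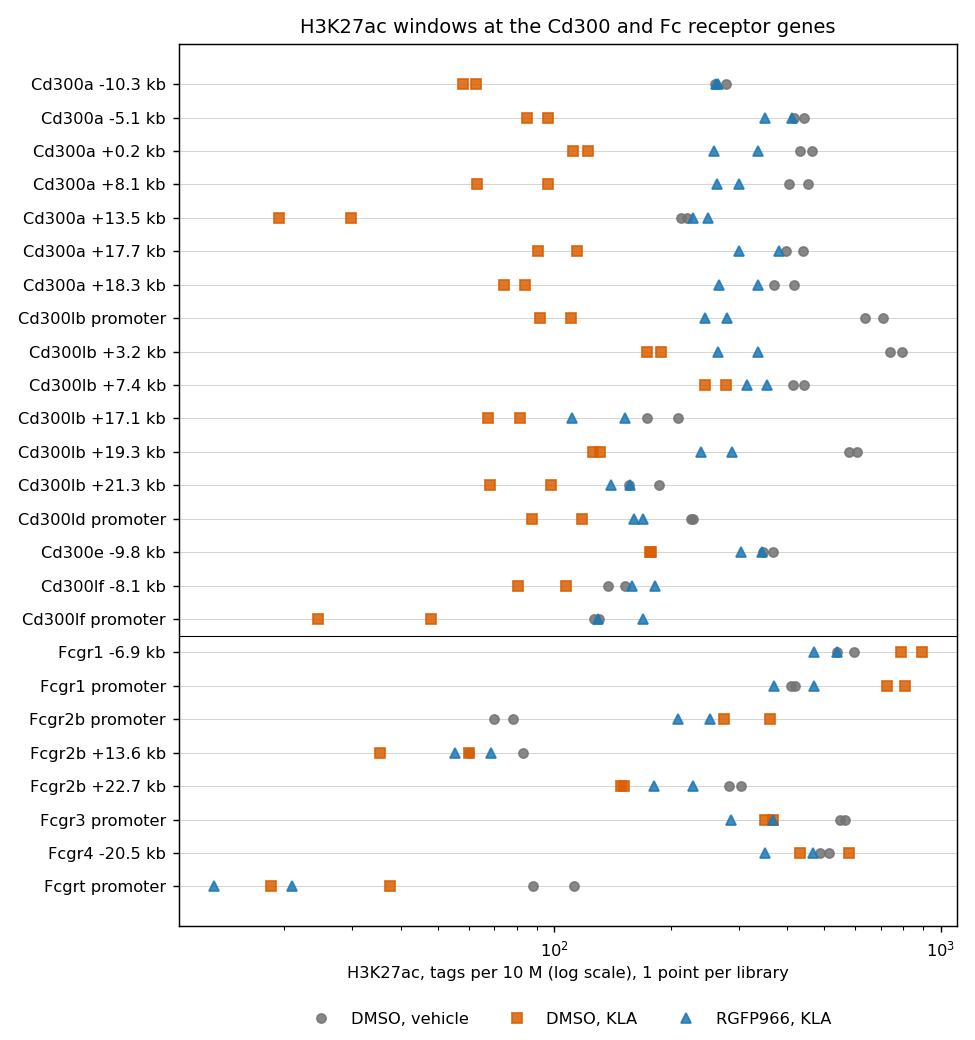
H3K27ac in tags per 10 M (log axis) at the 25 windows of the Cd300 (upper) and Fc receptor genes (lower), with 1 point per library for DMSO and Veh, DMSO and KLA, and RGFP966 and KLA; labels give the distance from the start site, negative upstream. At 13.5 kb downstream of Cd300a the KLA libraries lie at 29.8 and 19.4 and all others at or above 213.

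The Fc receptor windows moved less and in both directions. Of 8 windows 1 rose and 1 fell with KLA, with a median of -0.27. The promoter of Fcgr2b, the inhibitory receptor, rose from 78.1 and 69.8 to 362 and 274 (2.11 ± 0.22, adjusted p = 8.54e-20, TMM 2.53), and held 252 and 209 with RGFP966. The promoter of Fcgr1, the high-affinity IgG receptor, went from 419 and 410 to 807 and 725 and held 469 and 370 with RGFP966. Its KLA response of 0.89 ± 0.19 (adjusted p = 1.13e-05) missed the fold minimum and passed it with TMM (1.32). The window 6.9 kb upstream of Fcgr1 had the highest level of the Fc receptor windows, 539 and 595 with Veh, 894 and 788 with KLA and 538 and 469 with RGFP966.

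At Fcgr3 the promoter window went from 547 and 565 to 367 and 350 (-0.63 ± 0.19) and held 369 and 287 with RGFP966, which overlaps the DMSO KLA libraries. The window 20.5 kb upstream of Fcgr4 held 514 and 486, 580 and 432, and 467 and 351, with overlapping Veh and KLA libraries (0.02 ± 0.19). The Fcgrt promoter fell from 88 and 113 to 37.6 and 18.5 (-1.80 ± 0.28, adjusted p = 5.96e-10) and held 13.2 and 21 with RGFP966. It was thus the only Fc receptor window called lower with KLA and did not stand higher with RGFP966; without the DMSO KLA replicate 1 library its RGFP966 difference of -0.75 was -0.12.

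Of the 25 windows, 24 had both an NCoR and an HDAC3 peak with its centre within 500 bp of theirs, and 25 had a PU.1 and a p300 peak. Peaks of p65 and Fosl2 lay at 24 windows each, of PGC1β at 23 and of ERK1 at 21. Most windows thus had a listed peak of nearly all the factors profiled. The share of all H3K27ac windows with such peaks was not counted. Peaks were merged over conditions, so a listed peak does not show occupancy with Veh and KLA alike.

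NCoR fell at the Cd300 genes. Of 76 NCoR peaks at the members 6 rose and 19 fell, against 23.4% and 16.7% of all NCoR peaks, and 17 of the falls were among the 38 Cd300 peaks, whose median was -0.64, beside 0.10 for all peaks. The 38 Fc receptor peaks held 5 of the 6 rises and 2 falls, with a median of 0.15. For HDAC3, the deacetylase of the NCoR complex, 11 of 70 peaks rose and 7 fell (27.5% and 11.3% of all peaks). The Cd300 peaks held 3 rises and 6 falls with a median of -0.57, and the Fc receptor peaks 8 rises and 1 fall with a median of 0.27, where the median of all HDAC3 peaks was 0.27 and -0.01 with TMM. All 25 NCoR calls held with TMM, as did 9 of the 11 HDAC3 rises and all 7 falls. The balance of the HDAC3 calls was not stable, however. With TMM 9 peaks rose and 13 fell, beside 24.3% and 16.3% of all HDAC3 peaks. Without KLA replicate 2, which had 46.5% of its tags in regions where replicate 1 had 31.2%, 7 rose and 15 fell. With only 1 of the 2 NCoR KLA libraries the NCoR calls numbered 15 (without replicate 1) and 12 (without replicate 2), and with only 1 HDAC3 Veh library the HDAC3 calls numbered 7 either way.

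The NF-κB subunit p65 rose at most of its peaks by library totals, 57% of all peaks being called higher and 5.43% lower, with a median of 1.46. Of 66 member peaks 34 rose and 6 fell; 24 of the rises were among the 32 Fc receptor peaks (median 1.44) and 10 among the 34 Cd300 peaks (median 0.56). These counts depended on the scaling. TMM lowers all p65 values by about the same amount, so it could not change the gap between the 2 medians (0.22 and -0.66 with TMM). With TMM, where all p65 peaks had 27.6% higher and 21.3% lower, the members had 7 rises and 19 falls. Of these falls 14 were at Cd300 and 5 at Fc receptor genes. Without p65 KLA replicate 1 or replicate 2 the 40 calls became 22 or 18. For p300, the acetyltransferase, 16 of 91 peaks rose and 20 fell (42.1% and 12.9% of all peaks). The Cd300 peaks had 5 rises and 17 falls with a median of -0.74, and the Fc receptor peaks 11 rises and 3 falls with a median of 0.52, beside 0.65 for all p300 peaks. With TMM, where all p300 peaks had 32.7% higher and 23.9% lower, the members had 11 rises and 35 falls. All 20 falls were among them. Without p300 KLA replicate 2 the 36 calls became 21.

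PU.1, the macrophage lineage-determining factor, was called lower at 21.7% and higher at 4.53% of all its peaks. Of 72 member peaks 2 rose and 14 fell, 13 of the falls among the 40 Cd300 peaks (median -0.74, beside -0.41 for all peaks). With TMM 6 of the 14 falls were still called, and the members had 5 rises and 6 falls (9.13% and 10.6% of all peaks). For the AP-1 subunit Fosl2 2 of 53 peaks rose and 2 fell (11.4% and 4.19% of all peaks), and 4 and 9 with TMM (19.0% and 9.68%). For the coactivator PGC1β 3 of 52 peaks rose and 7 fell (16.4% and 6.35%). All 7 falls were at Cd300 genes and held with TMM, which gave 2 rises and 9 falls in all (15.8% and 9.13%). In the separate PGC1β set with DMSO 8 of 72 peaks rose and 3 fell (16.4% and 1.23%), and 2 and 6 with TMM (8.71% and 2.89%). For the kinase ERK1 5 of 51 peaks rose and 2 fell (10.3% and 2.53%), and 3 and 4 with TMM (8.11% and 3.93%). The Fosl2, PGC1β and ERK1 counts rested on single libraries: Fosl2 calls numbered 10, 23, 0 and 0 without KLA replicates 1 and 2 and Veh replicates 1 and 2, PGC1β calls 3 without either Veh library, and ERK1 calls 1 without either KLA library and 4 without either Veh library. In the set with DMSO PGC1β calls numbered 6 without KLA replicate 1, 5 without Veh replicate 1 and 4 without Veh replicate 2.

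**Figure D2:**
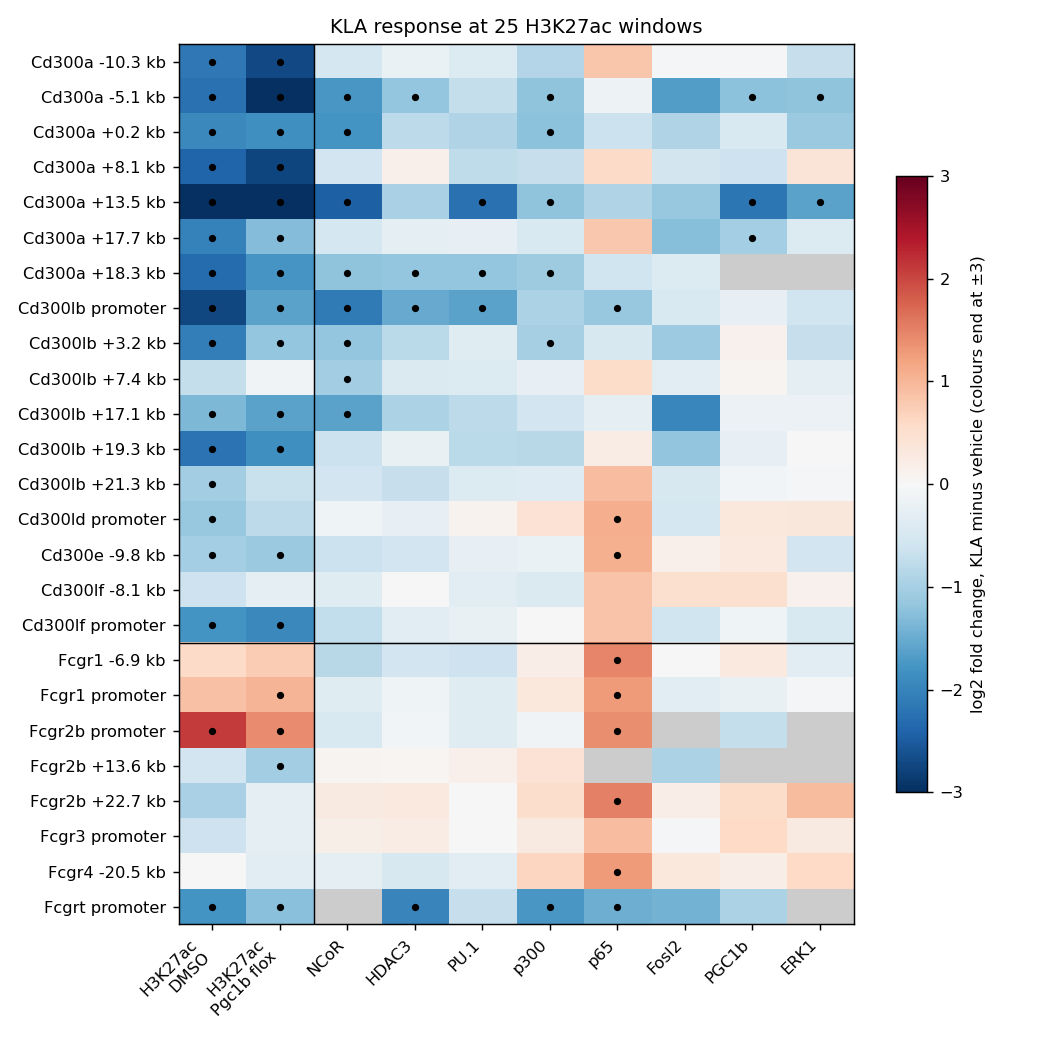
KLA response (log2 fold change, KLA minus Veh) at the 25 H3K27ac windows for H3K27ac with DMSO and in PGC1b flox cells, and for the factor peak nearest each window, by library totals; dots mark called changes and grey no peak within 500 bp. The H3K27ac column with DMSO runs from -0.61 to -3.11 over the 17 Cd300 windows, and p65 colours rest on the scaling, since TMM lowers every p65 value by about 1.22.

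At the site 13.5 kb downstream of Cd300a every factor had a peak and every one was lower with KLA, 5 of 9 factor sets by the call and 9 of 9 with TMM. NCoR went from 157 and 240 to 43.7 and 29.1 (-2.45 ± 0.30, adjusted p = 0.000215), and PU.1 from 179 and 203 to 45.1 and 35.7 (-2.24 ± 0.14, adjusted p = 2.76e-31, TMM -1.82), the lowest p of the PU.1 member peaks. PGC1β went from 42.3 in both libraries to 9.83 and 9.15 (-2.16 ± 0.44, adjusted p = 0.00151). The Veh and KLA libraries of these did not overlap. For p300 the levels were 110 and 82.1 with Veh and 43.5 and 39.5 with KLA (-1.21 ± 0.24), a call lost without the Veh replicate 1 library (-0.98).

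ERK1 at this Cd300a site went from 67.7 and 96 to 29.5 and 24.5 (-1.60 ± 0.43, adjusted p = 0.034), a call lost without the KLA replicate 1 (adjusted p = 0.0989), KLA replicate 2 (0.149) or Veh replicate 2 library (0.126). The uncalled factors went the same way: p65 from 85.8 and 67.1 to 37.4 and 44.5, HDAC3 from 178 and 166 to 46.3 and 140, and Fosl2 from 168 and 130 to 41.9 and 92.4. HDAC3 passed the fold minimum without its KLA replicate 2 library (-1.89), Fosl2 was called without its KLA replicate 2 library (-1.82) and p65 without its Veh replicate 2 library (-1.07). The losses at this site thus covered corepressor, coactivator and lineage factor alike.

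Other Cd300 sites lost factors too. The Cd300a peak 5.1 kb upstream lost NCoR (373 and 345 to 90.7 and 123, -1.74 ± 0.21), p300 (199 and 203 to 84.9 and 88.1, -1.21 ± 0.16), HDAC3 (343 and 321 to 144 and 153, -1.17 ± 0.38), PGC1β (-1.23 ± 0.30) and ERK1 (-1.21 ± 0.35). The HDAC3 and PGC1β calls were lost without either Veh library, and the ERK1 call without either KLA library or the Veh replicate 1 library. PU.1 there went from 329 and 354 to 203 and 209 and did not pass the fold minimum. At the Cd300a promoter NCoR went from 351 and 423 to 105 and 117 (-1.80 ± 0.19, adjusted p = 0.000113, the lowest p of the NCoR member peaks) and p300 from 128 and 143 to 61.9 and 54 (-1.23 ± 0.20). A peak 1.3 kb downstream of the Cd300a start, seen for NCoR, HDAC3 and p65 only, went from 38.2 and 47.1 to 2.43 and 3.46 for NCoR (-3.79 ± 0.56) and from 65.7 and 51.3 to 5.34 and 10.9 for p65 (-2.83 ± 0.48), a fall although p65 rose at most of its peaks by library totals.

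The Cd300lb promoter lost NCoR (176 and 181 to 36.4 and 45, -2.12 ± 0.24), PU.1 (120 and 123 to 42.5 and 37, -1.61 ± 0.16, TMM -1.20), HDAC3 (188 and 171 to 56.9 and 72, -1.50 ± 0.37) and p65 (86.7 and 129 to 51.4 and 46.5, -1.13 ± 0.30). The HDAC3 call was lost without either Veh library (adjusted p = 0.174 and 0.126). The p65 call was lost without either KLA library (adjusted p = 0.0822 and 0.111), or without the Veh replicate 2 library (-0.82). In intron 1 of Cd300lb, at the 0.6 kb sequence given above, Fosl2 went from 42.3 and 33.6 to 0 and 1.17 and p300 from 37.6 and 43.4 to 1.53 and 0. The Fosl2 call was lost without either Veh library (log2 fold change -5.27 and -5.57). PGC1β with DMSO went from 22.7 and 26.2 to 0 in both KLA libraries, at least 4.71-fold lower against a floor of 3 tags per library. This call was lost without any 1 of its 4 libraries. KLA libraries at these 3 peaks held 0 to 3 tags each. Of the Veh and KLA libraries only the Veh ones met the minimum of 4 tags there, so the direction was fixed in advance.

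The peak 10.2 kb upstream of Cd300e fell for HDAC3 (287 and 255 to 48.6 and 42.1, -2.56 ± 0.39, adjusted p = 1.33e-09), p300 (116 and 125 to 26.1 and 37.8, -1.91 ± 0.24), NCoR (192 and 218 to 65.6 and 47.7, -1.86 ± 0.24), PU.1 (-1.37 ± 0.16, TMM -0.95 and no longer called), PGC1β (-1.16 ± 0.40, lost without the KLA replicate 2 library or either Veh library) and Fosl2 (-2.23 ± 0.79, lost without either Veh library). This peak 10.2 kb upstream has its centre inside the H3K27ac window 9.8 kb upstream of Cd300e. Other peaks lie nearer the centre of that window, and these were not called lower. NCoR (-0.64), HDAC3 (-0.57), ERK1 (-0.56), PU.1 (-0.25), p300 (-0.19), Fosl2 (0.14) and PGC1β (0.30) were uncalled there. By library totals p65 was called higher (1.07), where TMM shifted the median p65 peak by -1.22. Cd300lf and Cd300ld differed from the sites that lost factors in their promoter peaks. At the Cd300lf promoter none of 9 factor sets was called, by library totals or with TMM: PU.1 held 469 and 522 with Veh and 427 and 417 with KLA, and p300 145 and 142 with Veh and 140 and 144 with KLA. There p65 was called higher without its Veh replicate 2 library (1.60, from 0.86, or -0.35 with TMM) and Fosl2 lower without its KLA replicate 2 library (-1.66, from -0.60). At the Cd300ld promoter PU.1 held 195 in both Veh libraries and 216 and 203 with KLA, while p65 went from 70 and 72.7 to 152 and 150 (1.08 ± 0.23), a rise that TMM turned to -0.14 and that was not called without either KLA library. H3K27ac had nevertheless fallen at the Cd300lf promoter.

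**Figure D3:**
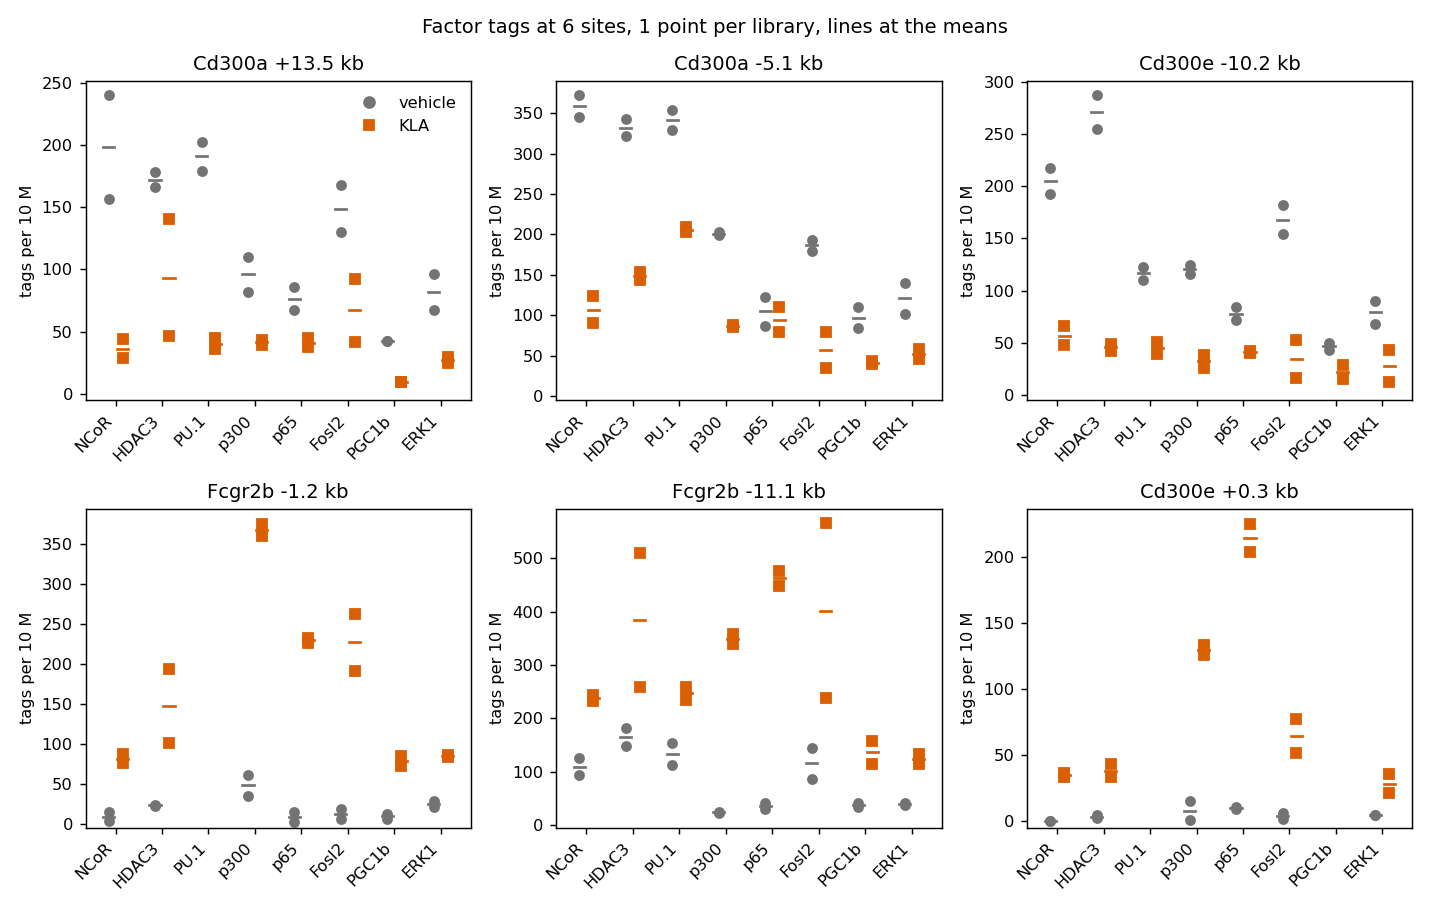
Tags per 10 M at 6 sites for 8 factors, with 1 point per library and lines at the means, Veh and KLA side by side; a gap means no peak of that factor within 500 bp, or for Cd300e 0.3 kb downstream a peak over 400 bp away. At the upper 3 sites (Cd300a and Cd300e) the KLA mean is lower for all 8 factors; at the lower 3 it is higher for every factor shown.

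In intron 1 of Cd300e, 0.3 kb downstream of the start site, factors appeared with KLA while the peak 10.2 kb upstream lost them. This peak, like the other tables' values at the sites of Fcgr1, Fcgr2b and Fcgr3 below, was chosen after its values were seen. NCoR was at 0 tags in both Veh libraries and at 36.4 and 33.2 with KLA. That is at least 9.79-fold higher against a floor of 3 tags per library. The NCoR region met the minimum of 4 tags through its KLA libraries only, so a rise was fixed in advance by that filter. p65 went from 10.5 and 9.32 to 225 and 204 (4.42 ± 0.30, adjusted p = 1.35e-06, TMM 3.20) and p300 from 0.627 and 15.1 to 133 and 125 (4.05 ± 0.46, adjusted p = 1.7e-06). HDAC3 went from 4.36 and 2.21 to 42.8 and 33.4 (3.56 ± 0.69). No Veh library came near a KLA library. Fosl2 (adjusted p = 0.00348) and ERK1 (adjusted p = 0.0497) were called too, Fosl2 not without either Veh library and ERK1 not without any 1 of its 4 libraries. The PU.1 peak nearest this site, on the other side of the Cd300e start, stayed at 86.4 and 86.5 with Veh and 87.7 and 96.2 with KLA.

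Upstream of Fcgr2b the factors rose together. At 1.2 kb all 8 factor sets with a peak were called higher, also with TMM. p65 went from 1.75 and 14.9 to 226 and 233 (4.80 ± 0.46, adjusted p = 9.94e-06, TMM 3.59), Fosl2 from 5.64 and 18.9 to 191 and 263 (4.16 ± 0.85), and p300 from 61.4 and 34.2 to 361 and 376 (2.94 ± 0.21, adjusted p = 7.27e-09). These 3 sets had Veh libraries far below the KLA ones.

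The corepressor complex was among the Fcgr2b gains. NCoR went from 3.58 and 14.1 to 86.7 and 76.1 (3.18 ± 0.49), HDAC3 from 21.8 and 23.8 to 101 and 193 (2.65 ± 0.40, adjusted p = 8.86e-10), PGC1β from 5.88 and 12.1 to 85.2 and 72.6 (3.09 ± 0.40), and ERK1 from 20.5 and 27.7 to 83.6 and 85.7 (1.79 ± 0.43). The Fosl2 call was lost without either Veh library (adjusted p = 0.5 and 0.237), and the ERK1 call without either KLA library (adjusted p = 0.0862 and 0.0948) or the Veh replicate 1 library (0.0524). PU.1 had no peak there.

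The region 11.1 kb upstream of Fcgr2b was occupied already with Veh and gained tags at 7 of 9 factor sets (8 with TMM). p300 went from 21.9 and 25 to 340 and 357 (3.89 ± 0.19, adjusted p = 1.81e-10) and p65 from 30.6 and 41 to 449 and 477 (3.69 ± 0.23, adjusted p = 8.89e-07), each the lowest p of its table's member peaks. NCoR went from 94.4 and 125 to 244 and 232 (1.12 ± 0.21), lost without its Veh replicate 1 library (0.93), and PGC1β from 41.7 and 33.5 to 157 and 115 (1.85 ± 0.30). HDAC3 (1.20 ± 0.39) was lost with TMM (0.84), without its KLA replicate 2 library (0.64) and without either Veh library, and ERK1 (1.65 ± 0.35) without its KLA replicate 1 library. PU.1 at this site went from 113 and 154 to 235 and 259, higher in both KLA libraries but short of 2-fold (0.91 ± 0.10, TMM 1.32). At the Fcgr2b promoter itself PU.1 held 301 and 353 with Veh and 260 and 248 with KLA, NCoR 58.5 and 53 with Veh and 45.4 and 36 with KLA, and only p65 was called (1.39 ± 0.39, TMM 0.15), and not without either KLA library. The H3K27ac rise at the promoter therefore stood beside factor gains 1.2 and 11.1 kb away.

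**Figure D4:**
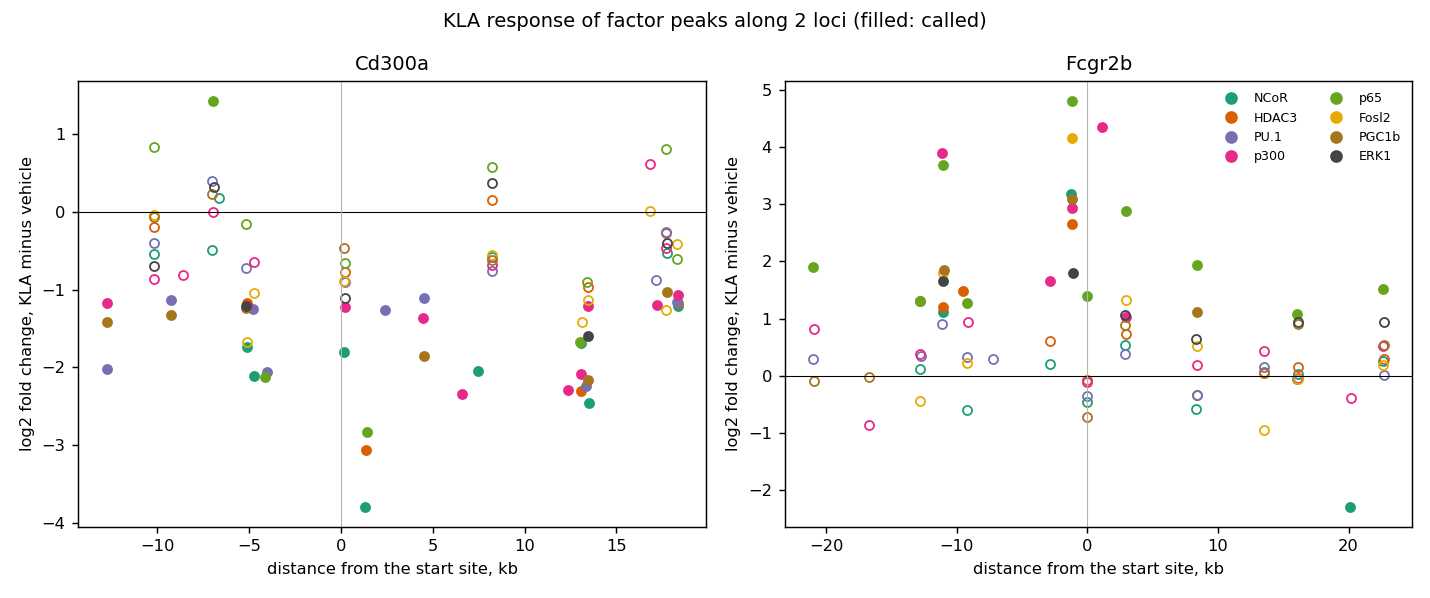
KLA response (log2 fold change by library totals) of each factor peak against its distance from the start site in kb, for Cd300a and Fcgr2b, filled where called. Filled points at Cd300a lie below 0 except for a p65 peak (1.43), and those at Fcgr2b above 0 except for an NCoR peak (-2.28); p65 values are lower by about 1.22 with TMM.

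At Fcgr1 the strongest gain was in intron 5, 8.5 kb downstream of the start site. PU.1 went from 59.5 and 61.6 to 166 in both KLA libraries (1.45 ± 0.13, adjusted p = 1.18e-19, TMM 1.87), one of only 2 member PU.1 peaks called higher, the other being 4.0 kb downstream of Fcgr3 (37.8 and 33 to 94.9 and 66.9). NCoR there went from 13.1 and 27.1 to 79.4 and 73.3 (1.92 ± 0.39), p65 from 4.38 and 0 to 36.7 and 50.6 (4.22 ± 0.77) and HDAC3 from 30.6 and 29.9 to 79.7 and 87.8 (1.46 ± 0.41, lost without either Veh library). The p65 call was lost without the KLA replicate 2 library (adjusted p = 0.0508), and the call of the Fcgr3 PU.1 peak without the KLA replicate 1 library (0.91).

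The strongest Fcgr1 peak, 6.9 kb upstream, was not called for NCoR (409 and 538 with Veh, 280 and 249 with KLA) or PU.1 (387 and 410, 248 and 270). p65 rose there from 113 and 108 to 267 and 343 (1.46 ± 0.21), which TMM took to 0.23. NCoR at this peak was called lower without its Veh replicate 1 library (-1.03). At 8.8 kb upstream of Fcgr1 p65 went from 49 and 49.4 to 228 and 257 (2.30 ± 0.23, TMM 1.07) and ERK1 from 40.9 and 23.1 to 114 and 93.9 (1.72 ± 0.41, adjusted p = 0.0219, the lowest p of its member peaks), the ERK1 call being lost without either KLA library or the Veh replicate 2 library. The Fcgr1 promoter kept similar levels of NCoR (207 and 230, 177 and 160) and PU.1 (299 and 325, 247 and 238).

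At Fcgr3, the low-affinity activating receptor, the promoter was not called in any of 9 factor sets: NCoR held 263 and 265 with Veh and 318 and 279 with KLA, PU.1 199 and 212 and 202 and 205, and p300 170 and 143 and 196 and 184. There p65 was called higher without its KLA replicate 1 (1.05) or Veh replicate 1 library (1.01), where all 4 libraries gave 0.93, or -0.30 with TMM. A p300 peak 5.8 kb downstream of the Fcgr3 start went from 0.627 and 0 to 87.5 and 64.3, its Veh libraries holding 1 tag and 0 tags. It met the minimum of 4 tags through its KLA libraries only, so a rise was fixed in advance by that filter. At 2.3 kb upstream of Fcgr3 all 4 factor sets with a peak rose: p300 from 4.39 and 3.94 to 34.3 and 40.5 (3.14 ± 0.48), NCoR from 7.17 and 0 to 25.9 and 43.6 (3.25 ± 0.80), p65 (2.35 ± 0.59, TMM 1.15 and not called) and HDAC3 (1.67 ± 0.59). The NCoR and p65 calls were lost without either KLA library, and the HDAC3 call without its KLA replicate 2 library or either Veh library. The Fcgr4 promoter had 1 of 8 sets called, p65 from 35.9 and 44.7 to 96.8 and 120 (1.42 ± 0.29), which TMM took to 0.20 and which was not called without the KLA replicate 2 library.

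The Fcgrt promoter, whose H3K27ac fell, lost HDAC3 (49.5 and 71.9 to 17 and 12.3, -1.99 ± 0.48), p300 (63.3 and 48 to 15.3 and 17.8, -1.74 ± 0.33) and p65 (81.4 and 58.7 to 11.4 and 39.7, -1.46 ± 0.49). No NCoR peak was listed for Fcgrt. The HDAC3 call was lost without the Veh replicate 2 library (adjusted p = 0.109) and the p65 call without the KLA replicate 1 library (-0.82).

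ERK inhibition together with KLA left NCoR lower at the members, but only by library totals. NCoR was called lower at 32 of 79 peaks and higher at 0 (48.6% and 0.634% of all NCoR peaks), and the median of all peaks was -1.20. With TMM, which moved that median to -0.04, 1 of the 32 was still called and the members had 5 rises. All NCoR peaks then had 3.45% higher and 3.38% lower. Without NCoR KLA replicate 1 or replicate 2 the 32 calls became 20 or 21. The ERKi libraries carry a later date in their labels than the KLA libraries, which have no DMSO label, and held 15.8% and 14.97% of their tags in regions against 34.2% and 33.3%. Inhibitor and date cannot be told apart here. The Fcgr3 promoter went from 352 and 302 with KLA to 117 and 99.1 with ERKi and KLA (-1.60 ± 0.19, adjusted p = 8.84e-05, TMM -0.43) and the Fcgr1 promoter from 179 and 161 to 49.9 and 51.7 (-1.74 ± 0.22, TMM -0.57). The peak 8.2 kb downstream of Cd300a went from 259 and 227 to 108 and 112 (-1.14 ± 0.19), which TMM turned to 0.03. The call that held was 7.4 kb upstream of Fcgr1, from 68 and 71.2 to 13.5 and 6.03 (-2.82 ± 0.43, adjusted p = 0.000288, TMM -1.66).

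For PGC1β the ERK inhibitor with KLA gave 0 edgeR calls at the 72 member peaks, where 0.108% of all peaks were called higher and 0.178% lower; 7 had an unadjusted p under 0.05 and DESeq2 called 1. The lowest p was 20.5 kb upstream of Fcgr4, from 154 and 164 with KLA to 68.8 and 62.1 with ERKi and KLA (-1.28 ± 0.34, adjusted p = 0.0905). At the region 1.2 kb upstream of Fcgr2b PGC1β held 96.7 and 81.9 with KLA and 128 and 93.1 with ERKi and KLA, overlapping libraries, beside 9.75 and 20.4 with Veh. At the Cd300a promoter it held 17.8 and 7.44 with KLA and 46.9 and 41.4 with ERKi and KLA (1.84 ± 0.63, adjusted p = 0.182). Both of these were looked at after their values were seen.

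In the WT and NKO set H3K27ac was counted over narrower ATAC-seq peaks, so levels are lower and are read within this table. In WT 1 of 15 tested windows rose with KLA and 4 fell (6.49% and 3.72% of all windows), and in NKO 1 rose and 5 fell (2.75% and 7.96%), 3 calls in all without NKO KLA replicate 2 or NKO Veh replicate 1. With TMM 1 rose and 5 fell in WT (4.84% and 5.18% of all windows), and 1 rose and 3 fell in NKO (4.29% and 5.32%). The region 13.4 kb downstream of Cd300a went from 16.4 and 22.4 to 3.14 and 3.45 in WT (-2.54 ± 0.57, adjusted p = 0.00106) and from 25.8 and 25 to 8.5 and 11.1 in NKO (-1.38 ± 0.48, adjusted p = 0.0447). It fell in both genotypes, although the NKO call was lost with TMM (-1.18) and without any 1 of the 4 NKO libraries. The Cd300a promoter region went from 91.4 and 115 to 35.2 and 45.5 in WT (-1.36 ± 0.22) and from 131 and 104 to 60.5 and 53.5 in NKO (-1.04 ± 0.21, TMM -0.83, lost without NKO KLA replicate 2 or NKO Veh replicate 1). The region 11 kb upstream of Fcgr2b rose from 18.3 and 14.8 to 45.3 and 59.3 in WT (1.66 ± 0.32, adjusted p = 0.000182) and from 29.5 and 25.5 to 51.5 and 61.8 in NKO (1.04 ± 0.31, lost without the second replicate of either NKO group). The Cd300lb promoter was called in NKO only (36.9 and 23.2 to 9.03 and 6.25, -1.93 ± 0.46, lost without NKO Veh replicate 1), in WT going from 18.9 and 31.1 to 21.4 and 13.8.

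NKO and WT were not shown to differ at these genes. NKO against WT gave 0 edgeR calls at the 15 windows with Veh (0.973% of all windows higher and 0.027% lower), 0 with KLA (0.4% and 0.389%), and 0 for the interaction, the difference of the KLA responses (0.027% and 0.67%). An unadjusted p under 0.05 was found at 1, 7 and 4 windows, and DESeq2 called none in any of the 3 comparisons. At the Cd300a region 13.4 kb downstream NKO stood 1.54 ± 0.61 above WT with KLA (adjusted p = 0.218) and the interaction was 1.16 ± 0.75 (adjusted p = 0.501). The lowest p of the interaction was 10.1 kb upstream of Cd300e, with 83.2 and 80 in WT Veh, 110 and 113 in WT KLA, 104 and 87.6 in NKO Veh and 67.4 and 75 in NKO KLA (-0.88 ± 0.28, adjusted p = 0.116).

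The PGC1b flox cells gave the KLA response of H3K27ac in libraries outside the RGFP966 set, although the genes were chosen with results of all tables known. In flox cells 2 of 25 windows rose and 15 fell (5.22% and 25.6% of all windows), and in flox Cre cells 1 rose and 18 fell (4.18% and 32.5%). Of the falls 13 and 16 were at the 17 Cd300 windows, with medians of -1.61 and -2.43 beside -0.45 and -0.62 for all windows. With TMM 10 of the 15 and 11 of the 18 falls were still called, all at Cd300 genes, and 3 and 2 windows rose. All windows then had 9.84% higher and 13.8% lower in flox cells, and 10.8% and 14.3% in flox Cre cells. The window 13.5 kb downstream of Cd300a went from 203 and 222 to 26.3 and 16.7 in flox cells (-3.30 ± 0.19, adjusted p = 1.1e-59) and from 239 and 206 to 28.2 and 53.4 in flox Cre cells (-2.43 ± 0.17). The Fcgr2b promoter rose in both, from 48.2 and 70.7 to 168 and 146 (1.42 ± 0.18) and from 43.7 in both Veh libraries to 108 and 99.6 (1.25 ± 0.20), and the Fcgrt promoter fell in both (-1.25 ± 0.23 and -1.47 ± 0.26), calls that were lost with TMM (-0.82 and -0.86).

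With Veh, flox Cre and flox cells gave 0 edgeR calls at the 25 windows (0.107% of all windows higher and 0.29% lower), with 6 at an unadjusted p under 0.05 and 0 by DESeq2. With KLA 5 windows were lower in flox Cre cells and 0 higher, where 6.81% and 0.702% of all windows were. With TMM 1 was higher and 0 lower, beside 1.90% and 1.08% of all windows. The summed H3K27ac level of the 6 macrophage markers moved with this, being 2229 in flox Veh, 2350 in flox KLA, 2068 in flox Cre Veh and 1263 in flox Cre KLA cells, and its part in these values was not tested. The largest was 3.2 kb downstream of Cd300lb, which held 640 and 578 in flox Veh, 268 and 275 in flox KLA, 635 and 592 in flox Cre Veh and 113 and 104 in flox Cre KLA libraries (-1.33 ± 0.11, adjusted p = 1.75e-32, TMM -0.93). The lowest p was at the Fcgr1 promoter, which went from 373 and 306 to 693 and 694 in flox cells and held 284 and 288 with Veh and 301 and 326 with KLA in flox Cre cells (-1.14 ± 0.08 with KLA, adjusted p = 4.46e-41, TMM -0.75). The Fcgr1 promoter rise of flox cells (1.02 ± 0.08, TMM 1.45, lost without flox Veh replicate 2) stood beside 0.13 ± 0.09 in flox Cre cells by library totals and 0.75 with TMM. The interaction there was -0.89 ± 0.12 (adjusted p = 6.58e-12, TMM -0.70) and missed the fold minimum, which it passed without flox Veh replicate 1 (-1.04).

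The other 3 were the Fcgr3 promoter (-1.08 ± 0.10), the Cd300lb promoter (-1.0 ± 0.12) and the window 19.3 kb downstream of Cd300lb (-1.03 ± 0.20), and all 5 calls were lost with TMM, which moved the median of all windows by 0.39. The Fcgr3 call was also lost without flox KLA replicate 1 (-0.94), the Cd300lb promoter call without flox Cre KLA replicate 2 (-0.98) or flox KLA replicate 2 (-0.89), and the 19.3 kb call without flox Cre KLA replicate 2 (-0.71) or flox KLA replicate 1 (-0.95). The window 13.5 kb downstream of Cd300a went the other way, 0.93 ± 0.25 higher in flox Cre cells with KLA (adjusted p = 0.000643). It missed the fold minimum, and passed it with TMM (1.33), without flox Cre KLA replicate 1 (1.31) or without flox KLA replicate 1 (1.30).

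The interaction, which asks whether the KLA response itself differed between flox Cre and flox cells, called 4 windows lower and 0 higher (4.6% and 0.77% of all windows). These were 3.2 kb (-1.34 ± 0.13, adjusted p = 2.36e-21), 19.3 kb (-1.21 ± 0.23, adjusted p = 4.42e-06) and 7.4 kb downstream of Cd300lb (-1.03 ± 0.13, adjusted p = 3.7e-13) and the Fcgr3 promoter (-1.04 ± 0.13, adjusted p = 1.24e-12). The first 2 held with TMM (-1.15 and -1.03), which called 1 window higher. With TMM 1.40% of all windows were called higher and 2.31% lower. At the Fcgr3 promoter the libraries held 410 and 403 in flox Veh, 362 and 301 in flox KLA, 383 and 407 in flox Cre Veh and 157 in both flox Cre KLA libraries, a KLA response of -1.33 ± 0.10 in flox Cre cells (TMM -0.71, no longer called) and of -0.29 ± 0.09 in flox cells (TMM 0.14).

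**Figure D5:**
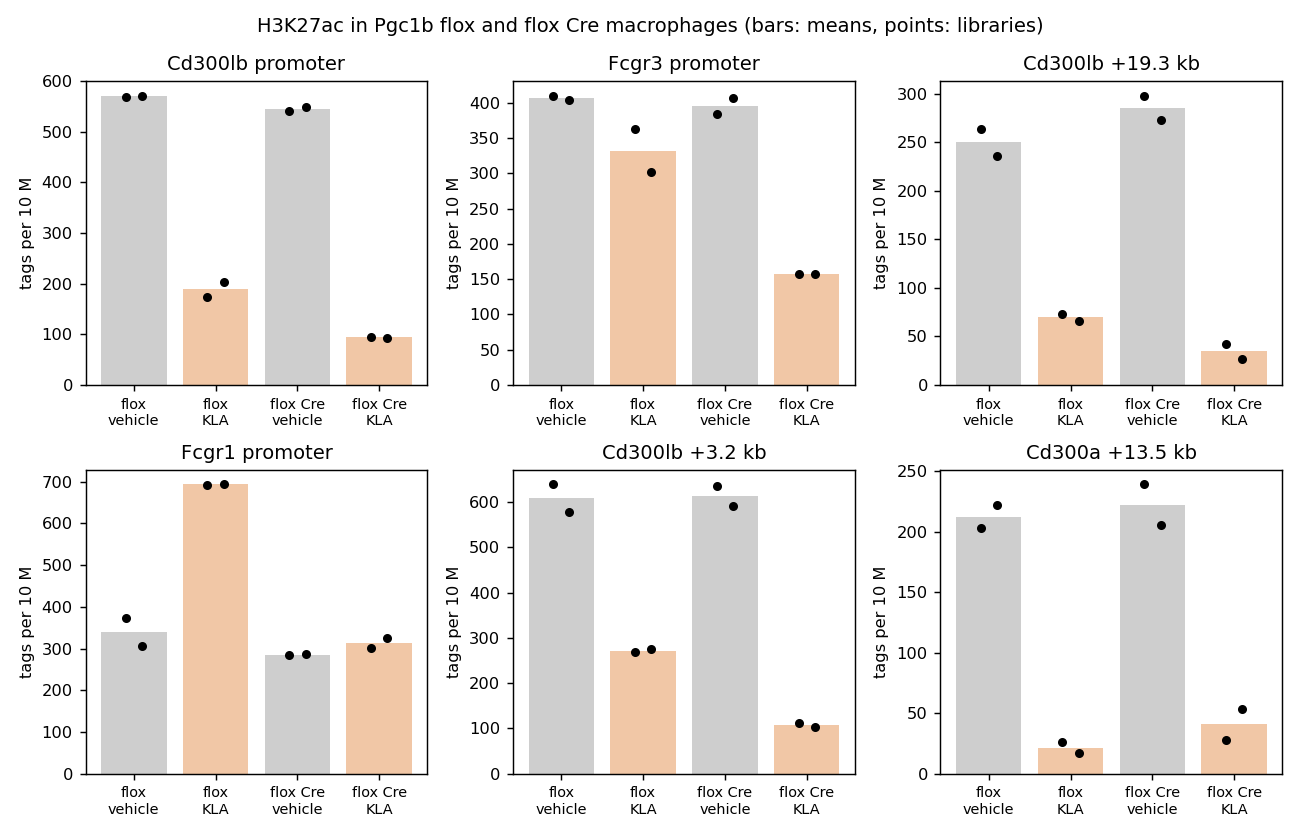
H3K27ac in tags per 10 M at 6 windows in PGC1b flox and flox Cre cells with Veh or KLA; bars are means of 2 libraries and points the libraries. The flox Cre KLA libraries lie below the flox KLA libraries at all windows but Cd300a 13.5 kb downstream, where they lie at 28.2 and 53.4 against 26.3 and 16.7; with TMM the 5 lower windows are no longer called and the Cd300a difference is larger (1.33 instead of 0.93).

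In differentiating bone marrow cells p300 was called higher on day 4 at 11 of 33 member peaks and lower at 0 (62.2% and 0.248% of all peaks, whose median was 1.84). With TMM none of the 11 was called and 2 peaks fell, and 1 was called without either Day4 library. Of all peaks 8.80% were called higher and 3.83% lower with TMM. The region 13.4 kb downstream of Cd300a went from 22 and 10.6 on day 0 to 50.9 and 79.4 on day 4 (1.88 ± 0.52, adjusted p = 0.0084, TMM 0.26, lost without Day4 replicate 2) and that 4.6 kb downstream of Cd300lb from 25.5 and 14.9 to 63.6 and 69.2 (1.63 ± 0.47, TMM 0.01, lost without either Day4 library). The lowest p was 7.8 kb downstream of Cd300ld, from 3.52 and 0 to 27.4 and 26.1 (adjusted p = 0.00353), lost without either Day4 library. In these libraries 1 of 5 osteoclast markers carried p300 on day 0 and 3 of 5 on day 4, with a summed level of 61.8 and 329, and the part of this in the receptor values was not tested. For ERK1 there were 0 edgeR calls at 37 peaks (2.33% of all peaks higher and 0.0267% lower), with 9 at an unadjusted p under 0.05 and 0 by DESeq2. By its label 1 of the 2 day 4 libraries is a replicate 3 of a later date than the other ERK1 libraries of this set. Its label also lacks the name NCoRWT, which both day 0 libraries and the other day 4 library carry. The lowest p was at the Cd300lb promoter, from 12.9 and 23.1 to 62.2 and 72.9 (1.91 ± 0.58, adjusted p = 0.0642).

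Genes that signal with these receptors were counted from a list of 15 (among them Fcer1g, Tyrobp, Syk, Ptpn6, Inpp5d and B2m). With KLA 19 of their 116 NCoR peaks rose and 22 fell, beside 23.4% and 16.7% of all peaks (19 and 23 with TMM). Of 109 p65 peaks 65 rose and 5 fell, near the 57% and 5.43% of all peaks, and with TMM 23 rose and 25 fell. Of 144 p300 peaks 40 rose and 17 fell, beside 42.1% and 12.9% of all peaks (30 and 35 with TMM). At Syk, the kinase downstream of activating Fc receptors, a peak 3.6 kb downstream rose from a mean of 53.2 to 624 for p65 (3.55 ± 0.20, TMM 2.32) and from 81.7 to 408 for p300 (2.32 ± 0.15, TMM 1.80), while at Inpp5d one 37.9 kb downstream fell for NCoR from 199 to 37.9 (-2.39 ± 0.24). Of their H3K27ac windows with DMSO 5 of 36 rose and 4 fell, beside 6.73% and 28.1% of all windows (12 and 1 with TMM), and in flox Cre cells with KLA 10 of 35 stood lower than in flox cells, beside 6.81% of all windows (0 with TMM). Of 14 related genes in or near the same families 12 of 26 NCoR peaks fell and 3 rose (12 and 4 with TMM), 10 of 35 PU.1 peaks fell and 0 rose, beside 21.7% and 4.53% of all peaks (4 and 3 with TMM), and 4 of 6 H3K27ac windows with DMSO fell and 1 rose, also with TMM. The peak 5.2 kb upstream of Cd300c, next to the cluster members, went from a mean of 251 to 50.2 for NCoR (-2.31 ± 0.22).

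Motifs were searched on both strands of the 200 bases around each peak centre. The PU.1 motif GAGGAAGT was found in 8 of 72 member PU.1 peaks (11.1%) and 18.1% of all PU.1 peaks, and TGANTCA in 11 of 53 member Fosl2 peaks (20.8%) and 28.8% of all Fosl2 peaks. An NF-κB motif was found in 5 of 66 member p65 peaks (7.58%) and 9.85% of all. The member shares were each below those of all peaks, which is a description of these windows. The site 13.5 kb downstream of Cd300a held TGANTCA in the sequence printed above and in its NCoR, HDAC3, p65, Fosl2, PGC1β, ERK1 and p300 peaks. Its PU.1 peak held no match to that motif. A further match lay outside the printed bases, as in the Fosl2 peak 13115 bp downstream. The promoter peaks of Cd300lf, Cd300ld and Fcgr4 held the PU.1 motif.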

How the data were processed

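According to the labels, the authors aligned reads to mm10 with Bowtie2, called reproducible peaks with HOMER and merged them over conditions, and deposited raw tag counts per region in each library, with at most 3 tags per position; H3K27ac was counted over ATAC-seq peaks. DESeq2 is named in the submitters' notes; versions are not given in the sources used here. Of 100 samples 30 inputs had no columns and were not used here. From the deposited counts, 1 edgeR 4.0.16 quasi-likelihood fit per table (R 4.3.3) used header totals as library sizes, regions with at least 4 tags (factors) or 16 (H3K27ac) in 1 library, and Benjamini-Hochberg adjustment over all tested regions. Replicates are labelled biological. Fits were tested on simulated data.

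Members and lists were chosen with earlier results of these data known. Named regions were each member's strongest and promoter region (within 2000 bp) per table, the called region of lowest p in each direction, and other tables' regions at the Cd300a site; others were chosen after their values were seen. Of 818 regions all lay within mm10 and 703 distances matched RefSeq within 10 bp. Same-numbered replicates did not deviate together (31 correlations, -0.027 to 0.026). Alternatives were TMM, DESeq2 1.42.0, other filters, a replicate block and each library left out. Promoter sequences are not printed. Figures: matplotlib 3.10.9.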

Additional observations from a re-analysis of the deposited data

Results flagged for a closer look

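At 4 H3K27ac windows the KLA response differed between PGC1b flox Cre and flox cells by the interaction test, each being lower in flox Cre cells. The difference of the log2 responses was -1.34 at 3.2 kb downstream of Cd300lb, -1.21 at 19.3 kb downstream of Cd300lb, -1.03 at 7.4 kb downstream of Cd300lb and -1.04 at the Fcgr3 promoter. With TMM the first 2 passed the fold minimum (-1.15 and -1.03) and the others did not (-0.85 and -0.85). The window at 19.3 kb was not called without flox Cre KLA replicate 2 (-0.90). The window at 7.4 kb was not called without flox Cre KLA replicate 2 (-0.93), flox Cre Veh replicate 1 (-0.90) or flox KLA replicate 1 (-0.97), and the Fcgr3 promoter was not called without flox Cre Veh replicate 2 (-0.99) or flox KLA replicate 1 (-0.90).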

How the results depend on the processing

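Counts of member regions called under the alternatives moved by more than 1.5 times for the following, and the cause was not tested. The p65 response gave 40 calls by library totals, 26 with TMM, 25 with DESeq2 size factors and 25 with DESeq2's Wald test. The Fosl2 response gave 4, and 13, 15 and 18. NCoR with ERKi gave 32, and 6 in each of the 3 alternatives. p300 on day 4 gave 11, and 2, 2 and 0. Flox Cre against flox with KLA gave 5, and 1 in each. The Wald test alone moved the PGC1β response with DMSO (11 to 7), PGC1β with ERKi (0 to 1) and the PGC1b interaction (4 to 2). With no fold minimum the PU.1 response gave 54 calls instead of 16, flox Cre against flox 1 instead of 0 with Veh and 18 instead of 5 with KLA, and the interaction 11 instead of 4. Other filters on low counts moved no count past 1.5 times, nor did centres within 100 or 1000 bp for the windows with NCoR and HDAC3 (24 of 25).

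Same-numbered replicates did not deviate together. This does not settle whether they were paired, which the labels do not state. With a replicate block the Fosl2 count went from 4 to 1 and that of p300 on day 4 from 11 to 5, and the other 23 counts stayed within 1.5 times. Of 348 named pairs of a region and a comparison, 9 lost the call with the block and 1 gained it.

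Leaving out 1 library at a time gave these lowest and highest counts: NCoR 12 to 27, HDAC3 7 to 22, p65 18 to 43, Fosl2 0 to 23, PU.1 16 to 17, PGC1β 3 to 15, ERK1 1 to 4, p300 21 to 38, PGC1β with DMSO 4 to 8, PGC1β with ERKi 0 to 0, NCoR with ERKi 20 to 37, ERK1 on day 4 0 to 1 and p300 on day 4 1 to 14. For H3K27ac they were 4 to 6 in WT, 3 to 5 in NKO, 15 to 18 with DMSO, 15 to 17 in flox, 19 to 21 in flox Cre, 5 to 7 for flox Cre against flox with KLA, 0 to 0 with Veh, 3 to 6 for the PGC1b interaction, 10 to 12 with RGFP966, and 0 to 0 for each NKO comparison. The remaining library of such a group was assumed to vary like the other groups. Of the 348 pairs 238 changed no call without any 1 library.

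With TMM 260 of the 348 pairs kept their call (or, with RGFP966, stayed within the replicate spread), 43 lost it, 21 gained it, 22 of the RGFP966 values moved and 2 reversed. NCoR with ERKi 8.2 kb downstream of Cd300a became 0.028 with TMM, 0.041 with DESeq2 size factors and 0.041 with the Wald test. p65 at the Cd300ld promoter became -0.14, -0.11 and -0.11.

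With 2 libraries a group, p-values measure the spread between these libraries only. Peaks with under about 10 tags in a group, such as those in intron 1 of Cd300lb, have fold changes that depend on the prior count. Library totals and TMM differ most where the share of tags in regions moved, and which of them gives the levels in the cells cannot be told from these tables. Counts are of ChIP tags, and RNA of these genes was not analysed here.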
